A study of Mus musculus with 6 samples.

Results

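Integrins are the receptors by which cells hold on to the extracellular matrix, and each is a pair of an alpha and a beta chain. Laminins are large glycoproteins of the basement membrane, the sheet of matrix beneath an epithelium, and each is built from an alpha, a beta and a gamma chain that give the trimer its number, so that laminin 111 holds LAMA1, LAMB1 and LAMC1. In the kidney tubule, laminins on the basal side of the epithelium are bound by integrins with ITGB1 or ITGB4, and chains that find no partner in the cell are largely retained. The genes described here were all rows of the deposited table whose symbol names an integrin alpha chain, an integrin beta chain or a laminin chain. They came to 37 of 39234 genes, 25 for integrins and 12 for laminins. ITGA8 is not analysed here.

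HK-2 cells, an immortalized human line from the renal proximal tubule, were compared in 3 control libraries and 3 libraries with overexpression of USAG-1, a secreted antagonist of bone morphogenetic proteins encoded by SOSTDC1. The labels give the genotype of all 6 as WT and the organism as mouse, whereas the gene identifiers are human. In the study's methods, USAG-1 was overexpressed by transient transfection of a plasmid, identity testing of the line was not done, and the labels do not say what the RNA-seq controls received. The labels also do not say whether the replicates were separate cultures, so the p-values measure only the spread between these libraries. SOSTDC1 (ENSG00000171243, chromosome 7, 16461481 to 16530580) had 79, 80 and 60 counts in control and 5072, 3907 and 4438 counts with overexpression, a log2 fold change of 5.94 (SE 0.13, adjusted p = 6.96e-07, edgeR's quasi-likelihood test).

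Total counts lay between 41236194 and 48699471 per library, so 3 counts, the limit that a count of 0 allows, equalled 0.0608 to 0.0719 CPM (counts relative to the library total, on edgeR's TMM scale). This limit covers counting error only. Control replicate 3 stood apart from the other control libraries, with a second principal component score of -54.3 against 28.2 and 25.2. Mitochondrially encoded genes held 4.80% to 5.59% of the counts in control and 1.504% to 1.55% with overexpression. Of the epithelial markers, KRT8, KRT18, KRT19 and EPCAM were detected in every library and CDH1 was at most 0.206 CPM. Of 5 proximal tubule markers tested, GGT1 and MME rose (40% changed at an adjusted p under 0.05, beside 15.9% of all genes tested). SLC34A1, SLC5A2 and ANPEP did not pass the test (log2 fold changes of 0.74, 0.17 and -0.21). LRP2 had no count in any library, and CUBN, AQP1 and HNF4A were at most 0.359 CPM.

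Of the 37 genes, 31 had enough counts to be tested. At an adjusted p under 0.05 over the 18188 genes tested, 15 of these 31 changed (48.4%, beside 15.9% of all genes tested). In USAG-1-overexpressing cells 7 rose, where 8.95% of all genes tested rose, and 8 fell, where 6.91% of all genes tested fell. Control and overexpressing libraries were fully separate in 21 of the 31, beside 37.6% of all genes tested. The shares of all genes stand beside these counts as a description, and the members as a list were not tested against other genes. Leaving out control replicate 3 gave 16 calls, where 27% of all genes tested were called. Leaving out control replicate 1 gave 8 (10.2% of all genes tested), and control replicate 2 gave 11 (8.74%). Leaving out USAG-1 overexpression replicates 1, 2 and 3 in turn gave 9, 8 and 8, where 6.92%, 5.98% and 7.09% of all genes tested were called.

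The calls fell in both families. Among the 10 laminin genes tested, 5 rose and 2 fell, with a median log2 fold change of 0.27. Among the 21 integrin genes tested, 2 rose and 6 fell, with a median of -0.19. The median over all genes tested was -0.02, and the difference between the families was not tested. Without control replicate 3 the laminin genes had 5 higher and 2 lower calls and the integrin genes 2 higher and 7 lower. Leaving out control replicate 1 or any 1 of the overexpressing libraries left the laminin genes with 3 higher and 1 lower. For the integrin genes, control replicate 1 and overexpressing replicates 2 and 3 each left 1 higher and 3 lower, and overexpressing replicate 1 left 1 higher and 4 lower. The shares of all genes called in these fits are given in the paragraph above.

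**Figure D1:**
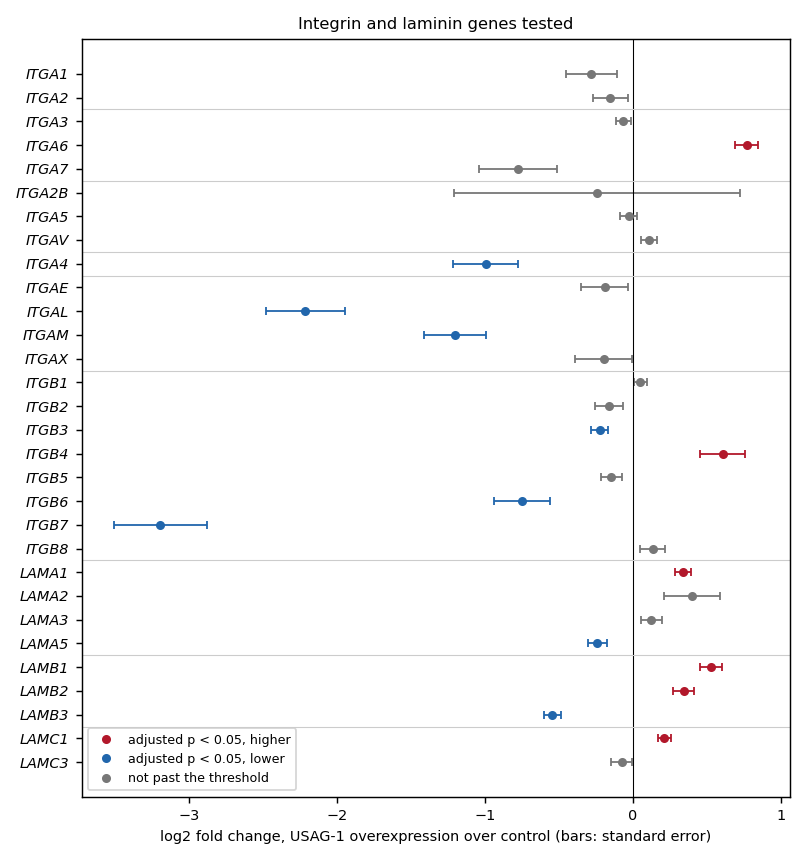
Fitted log2 fold change of 30 of the integrin and laminin genes tested, USAG-1 overexpression over control, with bars of 1 standard error; red marks genes that rose, blue genes that fell and grey genes that did not pass the threshold. ITGB7 at -3.19 and ITGAL at -2.21 lie farthest to the left, ITGA6 at 0.77 farthest to the right, and most laminin chains lie to the right of 0.

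LAMB3, a beta chain of the laminins that anchor epithelia, fell. LAMB3 (ENSG00000196878, chromosome 1, 209614870 to 209652425) stood at 232, 241 and 253 CPM in control and at 158, 170 and 169 CPM in USAG-1-overexpressing cells. Every overexpressing library was below every control library, a log2 fold change of -0.54 (SE 0.06, adjusted p = 0.00123), and the call held under all 16 alternatives. LAMA3 (ENSG00000053747, chromosome 18, 23689453 to 23956222), an alpha chain of epithelial laminins, stood at 128, 128 and 111 CPM in control and at 136, 132 and 132 CPM with overexpression. The groups lay apart, and the log2 fold change of 0.13 (95% interval -0.04 to 0.29, adjusted p = 0.277) did not pass the test.

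Laminin 111, a laminin of early embryonic and tubular basement membranes, and laminin 121 were the trimers in which all chains rose, 2 of the 11 trimers with every chain tested. LAMA1 (ENSG00000101680, chromosome 18, 6941742 to 7117797) stood at 146, 150 and 144 CPM in control and at 178, 191 and 185 CPM with overexpression, a log2 fold change of 0.34 (SE 0.05, adjusted p = 0.00572). LAMB1 (ENSG00000091136, chromosome 7, 107923799 to 108003213), the beta chain shared by many laminins, stood at 503, 504 and 424 CPM in control and at 682, 699 and 678 CPM with overexpression. All libraries with overexpression lay above those of control, and the log2 fold change was 0.53 (SE 0.07, adjusted p = 0.0032), or 0.45 without control replicate 3, the lowest library. LAMB2 (ENSG00000172037, chromosome 3, 49121114 to 49133050), the beta chain of glomerular and neuromuscular basement membranes, stood at 68.5, 75.9 and 66.2 CPM in control and at 86.7, 87.7 and 92.5 CPM with overexpression, a log2 fold change of 0.34 (SE 0.07, adjusted p = 0.0146). LAMC1 (ENSG00000135862, chromosome 1, 183023420 to 183145592), the gamma chain of most laminins, stood at 1118, 1112 and 1139 CPM in control and at 1287, 1321 and 1297 CPM with overexpression. The libraries of each group lay close together and did not overlap, with a log2 fold change of 0.21 (SE 0.05, adjusted p = 0.0175).

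LAMA1 and LAMB1 kept their calls when any single library was left out. LAMB2 lost its call without control replicate 1 or any 1 of the overexpressing libraries (log2 fold changes of 0.32 to 0.36, adjusted p of 0.0514 to 0.072). LAMC1 lost its call on leaving out any library other than control replicate 3 (0.20 to 0.22, adjusted p of 0.063 to 0.0856), and an offset for the genomic span of each gene lowered its log2 fold change to 0.12 (adjusted p = 0.188). Within each library, the count of LAMB1 was set against that of LAMC1, a ratio that does not depend on how libraries are scaled. Its log2 value was -1.24 ± 0.16 in control and -0.92 ± 0.01 with overexpression (SD, n = 3), a difference of 0.32 without overlap. Control replicate 3 was the lowest at -1.43, beside -1.15 and -1.14 in control replicates 1 and 2. The two-sided exact permutation p was 0.1, the smallest that 3 libraries against 3 allow, so no chain ratio could pass 0.05.

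LAMA5, the alpha chain of the laminins that prevail in adult tubular basement membranes, fell, while LAMB1, LAMB2 and LAMC1 rose and LAMC3 did not pass the test. LAMA5 (ENSG00000130702, chromosome 20, 62307955 to 62351989) stood at 297, 295 and 261 CPM in control and at 238, 245 and 240 CPM with overexpression. Every overexpressing library was lower than every control library, and the log2 fold change was -0.24 (SE 0.06, adjusted p = 0.0396). The call was lost on leaving out any library but control replicate 3 (-0.25 to -0.21, adjusted p of 0.122 to 0.149), and with library sizes alone (-0.23, adjusted p = 0.0828). LAMA5 overlaps ADRM1, which lies on the other strand and had 47531 counts in all beside 69980 for LAMA5. The counting of shared reads is not given in the sources used here, and ADRM1 itself had a log2 fold change of 0.06. With LAMA5 lower and LAMB1, LAMB2 or LAMC1 higher, laminins 511, 521 and 523 were trimers whose chains changed in opposite directions.

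Like LAMA3, LAMA2 and LAMC3 did not pass the test. LAMA2, the alpha chain of muscle and nerve laminins, stood at 5.22, 3.89 and 5.49 CPM in control and at 5.95, 7.60 and 5.70 CPM with overexpression (log2 fold change 0.40, SE 0.19, adjusted p = 0.195). LAMC3, a gamma chain of limited distribution, stood at 124, 125 and 133 CPM in control and at 119, 130 and 114 CPM with overexpression, so the groups overlapped. LAMA4, an alpha chain of vessel walls, had at most 11 counts in any library, and LAMB4 had 8 counts in USAG-1 overexpression replicate 2 and none elsewhere. By class, the summed beta chains were 789 ± 40.7 CPM in control and 941 ± 15.2 CPM with overexpression (SD, n = 3), without overlap (exact permutation p = 0.1). In this sum LAMB1 gave a mean of 477 CPM in control and 687 with overexpression, and LAMB2 70.2 and 89.0. LAMB3, which fell, gave 242 and 166 CPM. The summed alpha chains were 558 ± 32.3 CPM in control and 565 ± 8.61 CPM with overexpression, and overlapped (exact permutation p = 1).

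**Figure D2:**
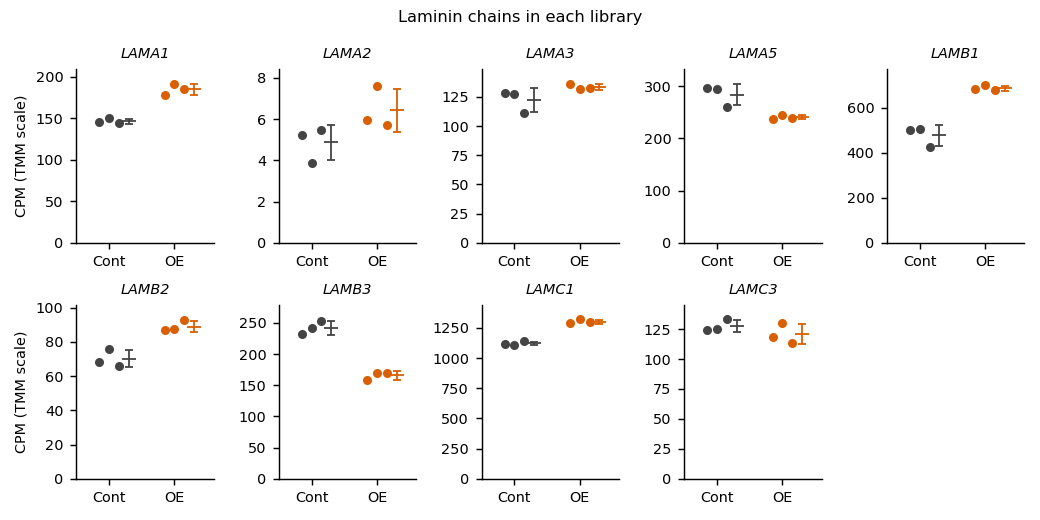
CPM of 9 laminin genes in each library, control (Cont, grey) and USAG-1 overexpression (OE, orange), with the mean and SD of 3 libraries beside the points and each axis starting at 0. LAMC1, LAMB1, LAMB2 and LAMA1 are higher in all overexpressing libraries, LAMB3 and LAMA5 are lower, and LAMC3 overlaps.

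Among the receptors for laminin, ITGA6 and its hemidesmosomal partner ITGB4 both rose, the only pair of the 19 with both chains tested in which both did. ITGA6 (ENSG00000091409, chromosome 2, 172427354 to 172506459), an alpha chain for laminins, stood at 18.4, 16.4 and 16.9 CPM in control and at 29.2, 28.9 and 29.9 CPM in USAG-1-overexpressing cells. The groups were far apart relative to their spread, at 1.70-fold (log2 fold change 0.77, SE 0.08, adjusted p = 0.000871), and the call held under all 16 alternatives. ITGB4 (ENSG00000132470, chromosome 17, 75721328 to 75757818), the beta chain that binds intermediate filaments through plectin, stood at 4.53, 5.96 and 5.30 CPM in control and at 8.97, 7.49 and 7.58 CPM with overexpression. Its groups did not overlap, with a log2 fold change of 0.61 (SE 0.15, adjusted p = 0.0331). That call was lost without control replicate 1 or any 1 of the overexpressing libraries (0.51 to 0.66, adjusted p of 0.0833 to 0.125). ITGB4 overlaps GALK1 on the other strand, which had 2816 counts in all beside 1775 for ITGB4 and a log2 fold change of -0.45 (adjusted p = 0.142).

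ITGB1, the beta chain that pairs with most alpha chains, stood at 879, 900 and 877 CPM in control and at 917, 925 and 907 CPM with overexpression. The groups did not overlap, yet the log2 fold change was 0.05 (95% interval -0.06 to 0.16, adjusted p = 0.513). A pseudogene, ITGB1P1, had 9647 counts in all beside 240121 for ITGB1. ITGA3, an alpha chain of receptors for epithelial laminins, stood at 1173, 1161 and 1224 CPM in control and at 1124, 1166 and 1112 CPM with overexpression, a log2 fold change of -0.06 (95% interval -0.18 to 0.05, adjusted p = 0.425). With ITGA6 higher and ITGB1 not past the test, the ITGA6 to ITGB1 ratio was -5.69 ± 0.10 in control and -4.97 ± 0.04 with overexpression on the log2 scale, whereas the ITGA3 to ITGB1 ratio was 0.42 ± 0.06 in control and 0.31 ± 0.02 with overexpression (SD, n = 3). Neither ratio overlapped between groups. The ITGA6 to ITGB4 ratio did overlap, with a difference of 0.16 (exact permutation p = 0.6).

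ITGA7, a laminin receptor chain of muscle, stood at 2.61, 2.76 and 1.71 CPM in control and at 1.20, 1.24 and 1.69 CPM with overexpression. Control replicate 3 lay next to USAG-1 overexpression replicate 3, and the log2 fold change of -0.78 (SE 0.26, adjusted p = 0.0847) did not pass the test. Without control replicate 3 it was -0.96 and passed (adjusted p = 0.0187). ITGA7 had 500 counts in all and overlaps METTL7B on the other strand, which had 1857 and a log2 fold change of 0.04. ITGA7 also overlaps ENSG00000258311 on the other strand, which had 1424 counts and a log2 fold change of -0.49 (adjusted p = 0.0869).

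**Figure D3:**
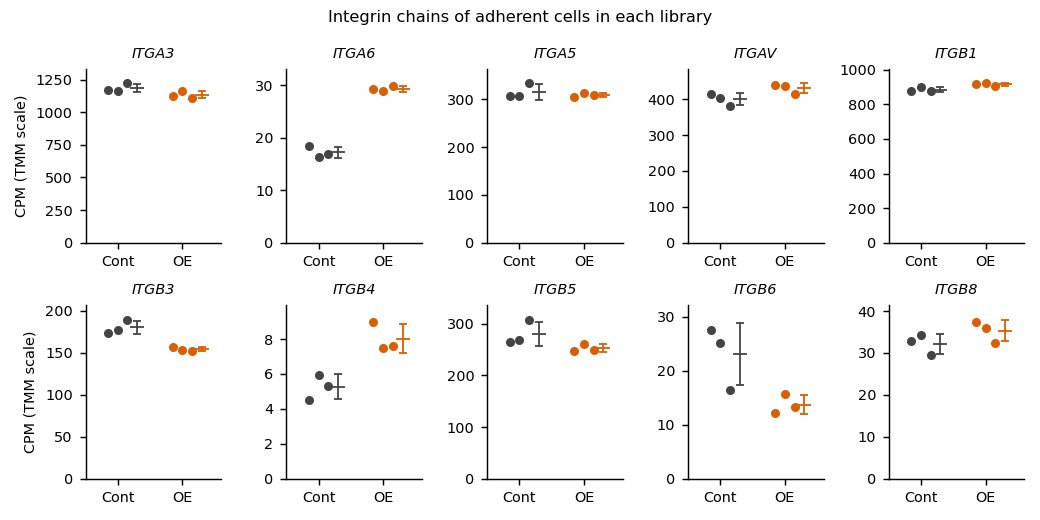
CPM of 10 integrin genes of adherent cells in each library, control (Cont, grey) and USAG-1 overexpression (OE, orange), with the mean and SD of 3 libraries beside the points and each axis starting at 0. ITGA6 and ITGB4 are higher and ITGB3 and ITGB6 lower in all overexpressing libraries, whereas ITGA3, ITGA5 and ITGB8 overlap.

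The receptors for the Arg-Gly-Asp motif of fibronectin, vitronectin and latent TGF-β pair ITGAV with several beta chains. Among these, ITGB3 and ITGB6 fell, and ITGB5 and ITGB8 did not pass the test. ITGAV itself stood at 415, 403 and 381 CPM in control and at 439, 438 and 416 CPM with overexpression (log2 fold change 0.11, 95% interval -0.02 to 0.24, adjusted p = 0.239). ITGB6 (ENSG00000115221, chromosome 2, 160099667 to 160200313), the epithelial partner that activates latent TGF-β, stood at 27.6, 25.2 and 16.5 CPM in control and at 12.3, 15.8 and 13.3 CPM with overexpression. The highest overexpressing library was just below control replicate 3, and the log2 fold change was -0.75 (SE 0.19, adjusted p = 0.0321). ITGB6 lost its call on leaving out any library other than control replicate 3 (-0.85 to -0.60, adjusted p of 0.071 to 0.124), and without control replicate 3 it was -0.93. A transcript on the same strand within ITGB6, ENSG00000285155, had 992 counts in all beside 4926 for ITGB6 and fell by 0.88 on the log2 scale (adjusted p = 0.0157).

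ITGB3 (ENSG00000259207, chromosome 17, 47253827 to 47313743), the beta chain of the vitronectin receptor, stood at 174, 177 and 189 CPM in control and at 157, 153 and 152 CPM with overexpression. The groups did not overlap and the log2 fold change was -0.23 (SE 0.06, adjusted p = 0.0312), a call that was lost on leaving out any library but control replicate 3 (-0.25 to -0.21, adjusted p of 0.055 to 0.13). ITGB5, also a vitronectin receptor chain, stood at 264, 269 and 308 CPM in control and at 248, 262 and 250 CPM with overexpression, and ITGB8, a chain that presents latent TGF-β, at 32.8, 34.2 and 29.6 CPM in control and at 37.4, 36.1 and 32.5 CPM with overexpression. Neither passed the test, with log2 fold changes of -0.15 (adjusted p = 0.204) and 0.13 (adjusted p = 0.336). The ITGAV to ITGB6 ratio was higher by 0.83 on the log2 scale, the ITGAV to ITGB3 ratio by 0.33 and the ITGAV to ITGB5 ratio by 0.25, all without overlap between groups. Control replicate 3 had the lowest control ratio for ITGB5 (0.31, beside 0.65 and 0.58) and ITGB3 (1.01, beside 1.26 and 1.18). For ITGB6 it had the highest (4.53, beside 3.91 and 4.00). Between beta chains, the ITGB5 to ITGB3 ratio differed by 0.08 and the ITGB6 to ITGB5 ratio by -0.58, and both overlapped between groups (exact permutation p = 0.2 for each). The ITGAV to ITGB8 ratio differed by -0.02 and overlapped (exact permutation p = 0.7).

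ITGA5, the fibronectin receptor chain, stood at 306, 306 and 334 CPM in control and at 306, 313 and 309 CPM with overexpression, and its groups overlapped (log2 fold change -0.03, 95% interval -0.16 to 0.10). ITGA2B, the platelet partner of ITGB3, ranged from 0 to 41 counts in control and from 11 to 27 counts with overexpression, too few to set the groups apart. Of the collagen receptor chains, ITGA1 stood at 18.0, 19.4 and 13.5 CPM in control and at 15.1, 15.6 and 11.1 CPM with overexpression, and ITGA2 at 10.5, 9.36 and 8.91 CPM in control and at 8.10, 9.05 and 8.67 CPM with overexpression. Both overlapped between groups, with log2 fold changes of -0.28 (adjusted p = 0.317) and -0.15 (adjusted p = 0.425). ITGA1 shares its strand and locus with PELO, which had 12805 counts in all beside 4142 for ITGA1. ITGA9 and ITGA10 had at most 15 counts in any library, ITGA11 had none, and none of these 3 was tested.

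**Figure D4:**
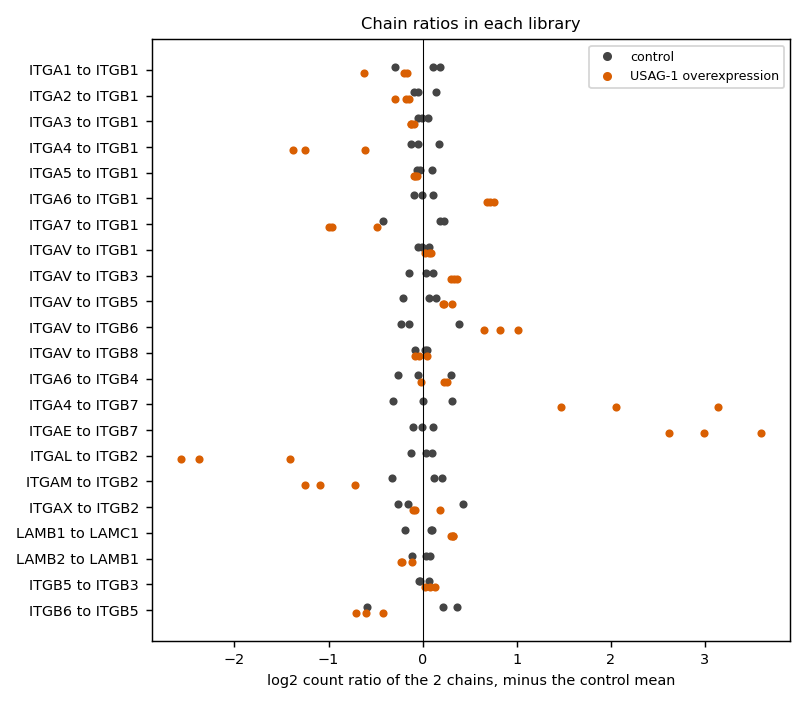
Log2 ratio of the counts of 2 chains in each library, minus the mean of the control libraries, for 22 ratios; grey points are control and orange points USAG-1 overexpression. In 13 of the 22 the groups do not overlap, 7 with higher and 6 with lower ratios under overexpression, and ITGAV to ITGB6 differs by 0.83. Of all single genes tested, 37.6% do not overlap, and no such share was taken for ratios of other genes. Many of the ratios share a chain, so they are not separate observations.

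The 4 members with the lowest log2 fold changes were integrin chains found on leukocytes. Of these, ITGA4 was classed with ITGA9 and not with the leukocyte alpha chains. ITGB7 (ENSG00000139626, chromosome 12, 53191323 to 53207281), the beta chain by which lymphocytes home to gut, had 107, 130 and 144 counts in control and 10, 12 and 19 counts with overexpression. In CPM these were 2.56, 2.63 and 3.38 in control and 0.218, 0.275 and 0.440 with overexpression, a log2 fold change of -3.19 (SE 0.32, adjusted p = 0.000853). ITGAL (ENSG00000005844, chromosome 16, 30472658 to 30523567), the alpha chain of the lymphocyte receptor for ICAM1, stood at 11.9, 9.95 and 11.1 CPM in control and at 3.38, 1.53 and 2.18 CPM with overexpression. Its log2 fold change was -2.21 (SE 0.27, adjusted p = 0.00173), with no overlap. ITGAM (ENSG00000169896, chromosome 16, 31259967 to 31332892), the complement receptor chain of myeloid and NK cells, stood at 5.01, 4.60 and 3.38 CPM in control and at 2.11, 1.67 and 1.85 CPM with overexpression (log2 fold change -1.20, SE 0.21, adjusted p = 0.00754). ITGA4 (ENSG00000115232, chromosome 2, 181457202 to 181527450), the partner of ITGB7 and of ITGB1 in receptors for VCAM1, stood at 8.36, 6.95 and 7.11 CPM in control and at 5.03, 3.00 and 3.20 CPM with overexpression (log2 fold change -0.995, SE 0.22, adjusted p = 0.0189).

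In all 4, every overexpressing library was below every control library. ITGB7, ITGAL and ITGAM kept their calls under all 16 alternatives, and ITGA4 lost its call without control replicate 1 or USAG-1 overexpression replicate 2 or 3 (-0.91 to -0.86, adjusted p of 0.0613 to 0.0834). ITGA4 and ITGB7 were the only pair of the 19 in which both chains fell. ITGB7 overlaps ZNF740 on the other strand, which had 15241 counts in all beside 422 for ITGB7 and a log2 fold change of -0.05.

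Of the other leukocyte chains, 3 were tested and did not pass. ITGB2, the beta chain that pairs with ITGAL, ITGAM and ITGAX, stood at 40.2, 39.3 and 39.3 CPM in control and at 32.3, 32.9 and 40.8 CPM with overexpression, where replicate 3 lay above all control libraries (log2 fold change -0.16, adjusted p = 0.292). ITGAX, the alpha chain of dendritic and myeloid cells, stood at 10.2, 9.22 and 14.9 CPM in control and at 8.65, 10.5 and 10.7 CPM with overexpression, and ITGAE, the partner of ITGB7 on lymphocytes within epithelia, at 7.71, 9.22 and 10.9 CPM in control and at 8.56, 7.05 and 8.76 CPM with overexpression. Both overlapped between groups (log2 fold changes of -0.20 and -0.19). On the log2 scale, the ITGAE to ITGB7 ratio was 1.70 ± 0.11 in control and 4.76 ± 0.50 with overexpression, and the ITGAL to ITGB2 ratio -1.85 ± 0.11 and -3.97 ± 0.62 (SD, n = 3), both without overlap. The ITGAX to ITGB2 ratio was -1.82 ± 0.37 in control and -1.83 ± 0.16 with overexpression. ITGAD had at most 20 counts in any library and was not tested.

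Genes that mark T and NK cells fell, as did ITGB7, ITGAL, ITGAM and ITGA4, whereas ITGB2, ITGAX and ITGAE did not pass the test. All 18 T and NK cell markers fell, where 6.91% of all genes tested fell, with a median log2 fold change of -3.21. Some had few counts with overexpression, such as CD3G (4, 8 and 6) and CD2 (12, 0 and 6), and passed the count filter through control. Such genes could be tested only as lower, and the list was chosen with earlier results known, so the share is a description. Their summed level was 107 to 129 CPM in control and 12.4 to 17.3 CPM with overexpression. Leaving out single libraries left 15 (without USAG-1 overexpression replicate 2) to 17 of the 18 lower, and none was at 0 in all libraries. TRAC, the constant region of the T cell receptor alpha chain, stood at 9.82, 9.85 and 11.0 CPM in control and at 0.871, 0.298 and 0.255 CPM with overexpression. PTPRC, the pan-leukocyte phosphatase CD45, stood at 18.9, 10.9 and 10.9 CPM in control and at 5.47, 4.65 and 3.01 CPM with overexpression. FERMT3, the kindlin of blood cells that activates integrins, fell by 1.64 on the log2 scale (SE 0.24, adjusted p = 0.00373). Of 9 myeloid markers tested, LYZ fell and CD68 rose (22.2% called, beside 15.9% of all genes tested). Of 6 B cell markers tested, CD22 rose (16.7% called). No myeloid marker was called without control replicate 1 or any 1 of the overexpressing libraries. None of the 6 platelet and erythroid markers tested passed the test, and some blood cell genes varied widely within groups. HBB, a globin gene, had 144, 3475 and 134 counts in control and 2368, 90 and 344 with overexpression. The myeloid marker S100A8 had 120, 95 and 980 counts in control and 102, 707 and 430 with overexpression. The source of the blood cell transcripts was not tested, nor was the part of such cells in the leukocyte integrin values. Were such cells present, fewer cells of a type and less RNA per cell could not be told apart in bulk RNA.

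With the 8 leukocyte chains set aside (ITGA4, ITGAD, ITGAE, ITGAL, ITGAM, ITGAX, ITGB2 and ITGB7), a grouping made with the values known, 24 tested members remained. Of these, 11 changed (45.8%, beside 15.9% of all genes tested), 7 higher and 4 lower, with a median log2 fold change of 0.01. The 14 other integrin genes tested held 4 that changed (28.6%), of which ITGA6 and ITGB4 rose and ITGB3 and ITGB6 fell.

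**Figure D5:**
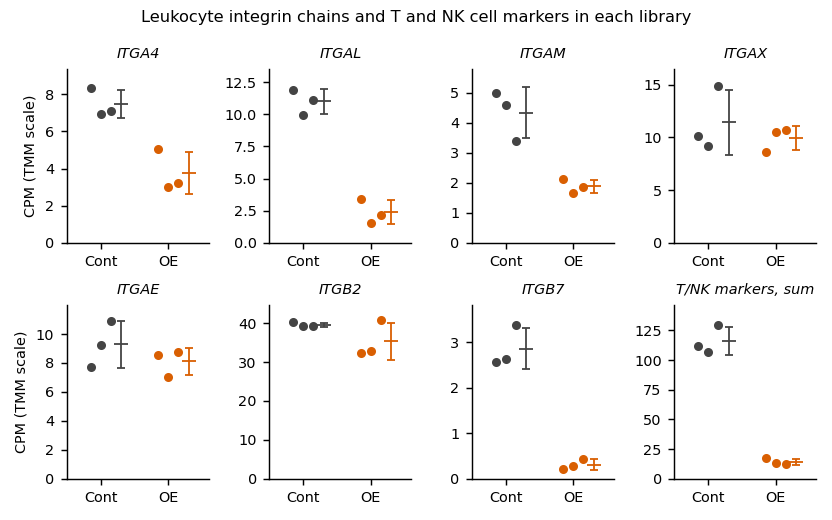
CPM of the 7 leukocyte integrin chains tested and the summed CPM of 18 T and NK cell markers in each library, control (Cont, grey) and USAG-1 overexpression (OE, orange), with the mean and SD of 3 libraries beside the points and each axis starting at 0. ITGA4, ITGAL, ITGAM, ITGB7 and the summed markers are lower in all overexpressing libraries, whereas ITGAX, ITGAE and ITGB2 overlap.

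Activators and adaptors switch integrins on and link them to actin. Of 34 such genes tested, 9 rose and 2 fell (32.4% called, beside 15.9% of all genes tested). Their median log2 fold change was 0.10. Without control replicate 3 the counts were 15 and 3, where 27% of all genes tested were called. Omitting any other single library gave 7 or 8 higher and 2 lower, where 5.98% to 10.2% of all genes were called. TLN1 and TLN2, the talins that bind beta chain tails and switch integrins on, rose by 0.54 (adjusted p = 0.00156) and 0.59 (adjusted p = 0.00211) on the log2 scale. TNS1, a tensin of fibrillar adhesions, fell by 0.59 on the log2 scale (adjusted p = 0.00606), and FERMT3 is given above. The kinases PTK2 and ILK, which signal at focal adhesions, had log2 fold changes of 0.06 and 0.17 and did not pass the test.

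Of 12 hemidesmosome partners and other laminin receptors, 2 rose and 4 fell (50% called, beside 15.9% of all genes tested). Their median log2 fold change was 0.03. Omitting control replicate 3 gave 4 higher and 4 lower, and omitting control replicate 2 gave 1 and 2. Omitting overexpressing replicate 1 gave 2 higher and 0 lower, and replicate 2 or 3 of that group 1 and 0. Of all genes tested, 27% were called without control replicate 3 and 8.74% without control replicate 2. Without overexpressing replicates 1, 2 and 3 the shares were 6.92%, 5.98% and 7.09%. DAG1, the dystroglycan gene, stood at 128, 131 and 149 CPM in control and at 197, 203 and 196 CPM with overexpression (log2 fold change 0.55, SE 0.07, adjusted p = 0.0021). SDC2, a syndecan, rose by 0.33 on the log2 scale (adjusted p = 0.0124). PLEC, the plectin that ties ITGB4 to keratin, stood at 1229.7, 1194 and 1203 CPM in control and at 1011, 1029 and 1012 CPM with overexpression (log2 fold change -0.25, adjusted p = 0.00979), lower while ITGB4 was higher. SDC4, the syndecan of focal adhesions, fell by 0.47 on the log2 scale (adjusted p = 0.0106). CD9, a tetraspanin, had 10, 13 and 23 counts in control and none with overexpression, at least 5.12-fold lower against a limit of 3 counts per library. CD151, the tetraspanin bound to ITGA3 and ITGA6, is named after its values were seen. It fell by 0.46 on the log2 scale (adjusted p = 0.0352), and by 0.29 without control replicate 3. Leaving out single libraries ended the calls of SDC2 (without control replicate 2 or USAG-1 overexpression replicate 2 or 3), PLEC and SDC4 (without any 1 of the overexpressing libraries), and CD9 and CD151 (without control replicate 2 or any 1 of the overexpressing libraries). Their adjusted p then lay between 0.0501 and 0.127.

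Among 13 basement membrane partners tested, 3 rose and 1 fell (30.8% called, beside 15.9% of all genes tested). Their median log2 fold change was 0.04. Omitting control replicate 2 or overexpressing replicate 1 or 3 left 2 higher and 0 lower, where 6.92% to 8.74% of all genes tested were called. NTN4, a netrin that binds the gamma chain of laminins, rose by 0.43 on the log2 scale (SE 0.06, adjusted p = 0.00383) and NID1, the nidogen that links laminin to collagen IV, by 0.34 (SE 0.05, adjusted p = 0.005). NID2 rose by 0.31 (adjusted p = 0.0187), and NPNT, the nephronectin of kidney development, fell by 0.34 on the log2 scale (adjusted p = 0.0162). NID2 lost its call without control replicate 2 or any 1 of the overexpressing libraries (0.26 to 0.32), and NPNT without control replicate 2 or USAG-1 overexpression replicate 1 or 3 (-0.33 to -0.28). The collagen IV chains COL4A1 and COL4A2 and the perlecan gene HSPG2 did not pass the test, with log2 fold changes of -0.13, 0.04 and -0.01.

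Of 23 genes tested from a list of other integrin ligands, 11 rose and 4 fell (65.2% called, beside 15.9% of all genes tested). Whether the product of each gene, TGFB2 among them, binds an integrin was not examined here. Their median log2 fold change was 0.31. Omitting control replicate 2 or overexpressing replicate 1 or 2 left 8 higher and 1 lower, and overexpressing replicate 3 left 8 and 2. In these fits 5.98% to 8.74% of all genes tested were called. THBS2, a thrombospondin, stood at 73.0, 68.8 and 78.5 CPM in control and at 150, 158 and 164 CPM with overexpression (log2 fold change 1.10, SE 0.07, adjusted p = 0.000107). CCN2, the connective tissue growth factor, stood at 105, 99.1 and 97.6 CPM in control and at 184, 258 and 225 CPM with overexpression (log2 fold change 1.15, SE 0.11, adjusted p = 0.000871). TGFB2, a transforming growth factor, rose by 0.65 on the log2 scale (SE 0.06, adjusted p = 0.000505). TNC, the tenascin of remodelled matrix, stood at 300, 310 and 288 CPM in control and at 188, 197 and 199 CPM with overexpression (log2 fold change -0.62, SE 0.06, adjusted p = 0.000567). EDIL3, a ligand of ITGAV receptors, and TGFB1 fell by 0.52 (adjusted p = 0.0154) and 0.28 (adjusted p = 0.0241) on the log2 scale. EDIL3 lost its call without control replicate 2 or USAG-1 overexpression replicate 1 or 2 (-0.49 to -0.44), and TGFB1 without any library other than control replicate 3 (-0.32 to -0.25).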

How the data were processed

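RNA-seq of 3 control and 3 USAG-1-overexpressing HK-2 libraries was analysed from 1 table in which the authors deposited whole-number read counts per gene, not normalized, under a name that speaks of FPKM. Per the labels, libraries were strand-specific and poly(A)-selected, whereas the series text names removal of ribosomal RNA and another sequencer. The submitters' processing notes name FastQC, cutadapt 1.9 and hg38. The aligner, counter and annotation are not given in the sources used here.

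Counts were filtered with filterByExpr, scaled by TMM and fitted with edgeR 4.0.16 (R 4.3.3; glmQLFit and glmQLFTest, no block for replicate number). Benjamini-Hochberg adjustment was made over 18188 genes, which held 99.9% of the counts, and an adjusted p under 0.05 at any fold was the threshold. Standard errors (SE) were taken as the fitted log2 value over the square root of F, and 95% intervals used the t distribution with the degrees of freedom of the test. Chain ratios and sums were compared by two-sided exact permutation tests. Alternatives used DESeq2 1.42.0, limma 3.58.1, other scalings, filters, a genomic span offset, a replicate block and each library left out in turn. The fits were tested on simulated data.

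The members and all lists were chosen with earlier results of these data known. Named genes are SOSTDC1, the members, and the called genes of each pathway list with the 3 smallest p in each direction, with a few others described as such or as uncalled or marker genes. For library pairs of a group, the chi-square per degree of freedom was at least 6.52, so no library was a copy. Levels were not compared between genes, because lengths of human coding sequences were not used here, and no sequences are shown. Values of some genes are not reported here, although counts over lists include them.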

Additional observations from a re-analysis of the deposited data

How the results depend on the processing

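Of the 15 integrin and laminin genes called, 7 kept their calls under all 16 alternative fits, among them ITGA6, ITGAL, ITGAM, ITGB7, LAMB1 and LAMB3, and the other 8 lost theirs in at least 1, always with the same direction. LAMA1 lost its call only with a genomic span offset and a replicate block together (0.23). Leaving out each library in turn gave 8 to 16 calls, 4 to 7 higher and 4 to 9 lower, with a median log2 fold change of -0.12 to -0.038. An adjusted p under 0.01 left 8 calls, 4 in each direction, and a fold change of at least 1.5 left 7, 2 higher and 5 lower. Without a filter on low counts 5 genes were lower, and the span offset with a replicate block left 4 higher. The median was -0.078 with limma-voom and -0.078 with a replicate block. Deviations of same-numbered libraries correlated at 0.07, -0.05 and 0.04, and those of differently numbered libraries at -0.14 to 0.11. No pairing by number was seen, but 3 libraries a group cannot exclude one. A replicate block gave 11 calls (5 higher, 6 lower) and 2381 of all genes, losing LAMA5, ITGB4, LAMC1 and ITGB3. Signs reversed for uncalled genes alone. ITGA2B was 1.00 with limma-voom, 0.10 with a replicate block, 0.14 with the span offset and block, and -0.81 to 0.52 across left-out libraries. ITGB1 was -0.037 with the span offset and -0.036 with the offset and block. Across left-out libraries ITGAX was -0.33 to 0.047 and ITGA5 -0.050 to 0.020, both positive without control replicate 3. The cause of these shifts was not tested. Over all genes, calls ranged from 1137 without USAG-1 overexpression replicate 2 to 5091 without control replicate 3. Chain ratios cannot give p under 0.1 with 3 libraries a group, and low counts limit the precision for ITGA2B, ITGA7 and ITGB7.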
